A study of Mus musculus with 8 samples.

Results

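The RNAs described here encode the nuclear part of the mitochondrial respiratory chain and of ATP synthase. Members were chosen by gene symbol alone: those that begin with Nduf, Uqcr, Atp5, Cox4, Cox5, Cox6, Cox7 or Cox8, together with Sdha, Sdhb, Sdhc, Sdhd, Cyc1 and Cycs. A total of 98 symbols matched; 6 with the ending -ps and 1 that was not listed in all 8 tables (Ndufaf1) were left out. This left 91 genes of 15962: 37 subunits of complex I, 7 complex I assembly factors, 4 subunits of complex II, 9 of complex III, the electron carrier cytochrome c, 16 of complex IV and 17 of complex V. All 91 passed the filter for testing, which asked for at least 1 TPM in at least 2 libraries. TPM express each RNA as its share of the library after division by gene length.

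The respiratory chain passes electrons from NADH (complex I) or succinate (complex II) through complex III and cytochrome c to oxygen at complex IV, and ATP synthase (complex V) uses the proton gradient that results. Complexes I, III, IV and V are built from subunits of both genomes, so that nuclear RNAs translated in the cytosol must meet mitochondrially encoded partners, whereas complex II is nuclear encoded throughout. Fully grown mouse oocytes are transcriptionally silent, rely on mitochondrial ATP production and draw on RNA stored during growth. During maturation a large share of this stored RNA is removed. BTG4, an adaptor that brings the CCR4-NOT deadenylase to mRNA, is needed for that removal.

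The 4 groups were measured by Smart-seq2, 2 libraries each with 15 oocytes per library, from oocytes of 6-week-old female Crl:CD1 (ICR) mice per the methods of the study. GV oocytes, in prophase arrest, and MII oocytes, at metaphase of the second division, were uninjected wild-type controls from in vitro culture. Btg4wt and Btg4tm oocytes were MII oocytes that had been microinjected, as fully grown oocytes, with capped RNA for Myc-tagged wild-type BTG4 or for a mutant in which 3 phosphorylated residues were replaced by alanine. Both injected groups kept their own Btg4 genes, so the mutant was measured on a wild-type background, and the 15 oocytes of a library were pooled. Nothing in the labels says that the 2 libraries of a group came from separate mice, so p-values measure the spread between these libraries. The labels name 3 samples per group; 2 per group were analysed here.

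Libraries were brought to a common scale by factors of 0.948 to 1.11, each the median of the ratios of its genes to their geometric mean, and replicate libraries correlated with Pearson's r of 0.982 to 0.987 over all genes tested. Btg4 itself stood at 2650 and 2794 scaled TPM in GV, 5792 and 6003 in MII, 5178 and 5510 in Btg4wt, and 3725 and 4068 in Btg4tm oocytes. The injected groups were thus not above uninjected MII oocytes, so the Btg4 level gives no check of the injection, and Btg4wt and Btg4tm below name the libraries so labelled. The paper itself shows immunoblots of wild-type and mutant BTG4 protein in injected oocytes. It also reports that the injected forms seemed to lower endogenous BTG4 protein. All 11 oocyte markers on the list were present, with a summed level of 36910 to 51410 scaled TPM. Of 14 markers of cumulus and granulosa cells, 7 were listed in all tables, at a summed 36.9 to 51.5 scaled TPM, of 4 macrophage markers 2 were (3.56 to 8.19), and none of 4 globin genes was. Of the 5 cumulus and granulosa markers tested, 1 was called: Inha, at 4.37 and 2.11 scaled TPM in GV, 0 and 0.533 in MII, 1.88 and 1.09 in Btg4wt, and 9.83 and 5.18 in Btg4tm oocytes, was lower in MII (log2 -1.72, limma adjusted p = 0.00478) and higher in Btg4tm than in Btg4wt (1.74, adjusted p = 0.00615), as most members were. Kitl, Cyp19a1 and Nr5a2 had log2 changes of 0.95, 0.63 and 0.27 in MII and -0.76, -0.23 and -0.87 in Btg4tm against Btg4wt. Star went the other way, with -0.12 and 0.34. All of these changes were within the fold. The part of these cells in the results was not tested. Oligo(dT) priming captures RNA by its poly(A) tail, so fewer molecules and shorter tails cannot be told apart, nor can fewer molecules per oocyte and a smaller share of the library.

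A stretch near the annotated 3′ end, which stops short of the site where the tail begins, can be shown for members of opposite behaviour. The polyadenylation signal, which directs cleavage and tail addition in the growing oocyte, is given in capitals within 30 bases of the annotated 3′ UTR, 5′ to 3′, from GENCODE M21 on GRCm38. The first 3 sequences belong to RNAs that rose from GV to MII and the last 3 to RNAs that had the largest fall in complexes II, IV and V; the other RNAs of these kinds had neither AATAAA nor ATTAAA in the last 50 bases of the chosen transcript.
Cox6b2 (chr7:4751796-4751825, minus strand): ctttgtgccacaAATAAAgttattgtgctg
Cox8a (chr19:7215166-7215195, minus strand): cccctttgtaacAATAAAgtctatttaaac
Ndufa10 (chr1:92439020-92439049, minus strand): gcatttaacttaATTAAAacttaatgaaat
Sdhb (chr4:140979163-140979192, plus strand): tacagcatatgtAATAAAcatttaagataa
Cox4i1 (chr8:120674174-120674203, plus strand): atggtccatgctAATAAAagaccagtttac
Atp5j2 (chr5:145183710-145183739, minus strand): gaactagtgtccAATAAAaggtgactggtt
These sequences are shown because they hold a signal, AATAAA in 5 of them and ATTAAA in Ndufa10, and so say nothing of its frequency. The common form was found in the last 50 bases of 59 of 90 members with an annotated 3′ UTR (65.6%) and of 64.0% of the 11052 tested genes with one, read on the transcript strand.

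Most of these RNAs fell from GV to MII. In GV oocytes the median member stood at 132 scaled TPM against 9.96 for all genes tested, and 8.87% of tested genes lay above the median member. The 91 RNAs summed to 17800 and 16490 scaled TPM in GV and to 7053 and 6998 in MII oocytes, 41.0% of the GV mean. A gene was called when its adjusted p (limma, Benjamini-Hochberg over 13968 genes) was under 0.05 and its log2 fold change beyond 1, on the log2(scaled TPM + 1) scale, which understates the change of low genes. By this rule 68 members were lower in MII, where 24% of all genes tested were, and 5 were higher, where 12.5% were. The median log2 change of the members was -2.37, beside -0.00 for all genes tested. The latter is largely set in advance by the scaling to the median of ratios. It does not show that the typical RNA kept its level. In size, 17 members fell by at least 4 log2 units, 33 by 2 to 4 and 18 by 1 to 2, while 18 stayed within 1 unit.

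**Figure D1:**
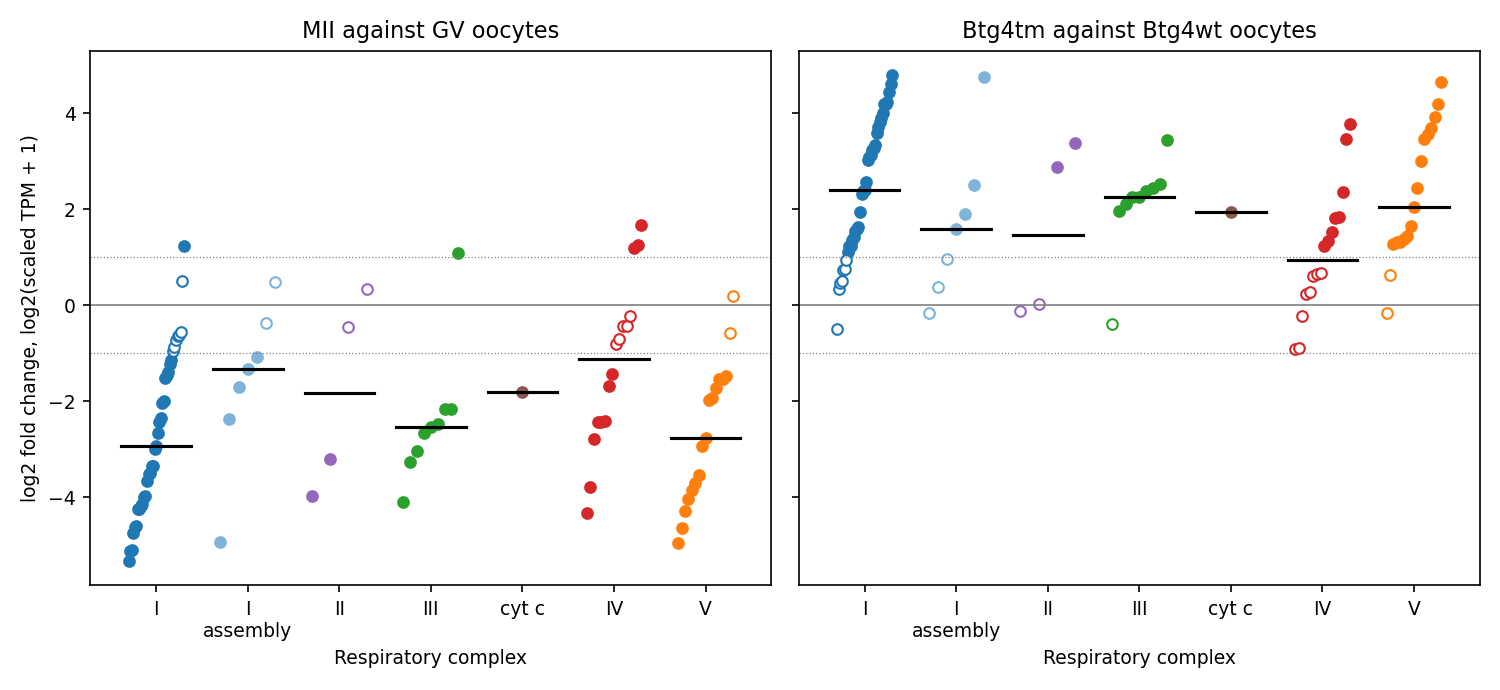
Each point is a member, placed by complex, with its log2 fold change on the vertical axis in MII against GV oocytes (left) and in Btg4tm against Btg4wt oocytes (right); filled points passed the test, open points did not, bars are medians and dotted lines mark a log2 change of 1. Complex I reached the lowest values (median -2.93 in MII) and complex IV had the highest median (-1.13) and 3 of the 5 members that rose, all 5 of which were lower under scaling to the mitochondrially encoded genes.

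Complex I, the entry point for NADH, had lower RNA for most of its core and accessory subunits in MII. Its 37 subunits summed to 6941 and 6299 scaled TPM in GV and to 1595 and 1675 in MII oocytes. In all, 29 were called lower and 1 higher, with a median log2 change of -2.93. Of the 7 core subunits of nuclear origin, which carry the flavin and the iron-sulphur clusters, 6 were lower, with a median of -4.19 over the 7, against 23 of 30 accessory subunits, with a median of -2.39.

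Ndufa9 (chromosome 6), an accessory subunit, had the largest fall of any member on the log2(scaled TPM + 1) scale. It stood at 408.6 and 363.9 scaled TPM in GV, 7.44 and 9.94 in MII, 10.1 and 9.23 in Btg4wt, and 278.9 and 313.1 in Btg4tm oocytes. The MII and Btg4wt libraries were low and the GV and Btg4tm libraries high, with no overlap between the low and the high groups. The log2 change was -5.33 ± 0.15 (SE, n = 2 per group, limma adjusted p = 2.55e-07) in MII, or 44.4-fold between means, below the folds of the less abundant Ndufb7 (174) and Ndufaf3 (48.3). Ndufb7, another accessory subunit, went from 42.3 and 38.9 to 0.432 and 0.0347 scaled TPM.

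Ndufa2, the most abundant complex I RNA in GV oocytes, was at 1022 and 922.6 scaled TPM there and at 28.4 and 44.2 in MII oocytes. Its log2 change was -4.74 ± 0.25 (SE). Ndufv1, the subunit that binds NADH, fell from 83.1 and 86.5 to 4.05 and 3.40 scaled TPM, and Ndufs7, which holds the last iron-sulphur cluster before ubiquinone, from 133.5 and 139.2 to 2.19 and 8.78. The core subunits Ndufs3, Ndufs8 and Ndufv2 had log2 changes of -3.66, -4.61 and -3.51. Ndufs1, the largest iron-sulphur subunit, did not pass: it was already low in GV (6.196 and 4.265 scaled TPM) and stood at 3.27 and 3.15 in MII (log2 -0.55 ± 0.23, adjusted p = 0.064).

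Ndufa10, an accessory subunit, went the other way, from 99.0 and 92.9 scaled TPM in GV to 230.2 and 222.3 in MII oocytes. This was a log2 change of 1.23 ± 0.11 (SE, adjusted p = 2.72e-05), and the groups did not overlap. Ndufa1, a small membrane subunit, was at 386.0 and 297.7 in GV and 503.1 and 460.3 in MII, without a call. As a result the makeup of the complex I RNA pool differed between stages: Ndufa2, Ndufb11 and Ndufa8 led in GV, with Ndufa2 at 14.7% of the sum in both libraries, and Ndufa1, Ndufa10 and Ndufb6 led in MII, with Ndufa1 at 31.5% and 27.5%.

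Of the 7 assembly factors that share the Ndufaf name, 5 were lower in MII. Ndufaf3 had the largest fall, from 75.7 and 72.6 scaled TPM to 0.994 and 2.08 (log2 -4.92 ± 0.23 SE). Ndufaf4, the most abundant, stood at 259.8 and 239.3 in GV and 203.7 and 183.8 in MII (log2 -0.36), and Ndufaf2 at 93.9 and 95.6 and at 135.9 and 128.6 (log2 0.48), neither past the fold. For Ndufaf2, 65.7% of exonic bases overlap another annotated gene and the counting took no account of strand, so its value may hold reads of that gene.

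Complex II, succinate dehydrogenase, was split between its 4 subunits. Sdhb, the iron-sulphur subunit, stood at 132.2 and 127.7 scaled TPM in GV and 5.31 and 9.89 in MII oocytes, and Sdhd, a membrane anchor and the most abundant of the 4 in GV, at 552.0 and 511.1 and at 59.5 and 53.9. Both fell, by log2 -3.98 ± 0.30 and -3.21 ± 0.24 (SE). Sdha, the flavoprotein that oxidises succinate, was at 45.9 and 41.0 in GV and 56.4 and 53.4 in MII, with a log2 change of 0.33 ± 0.13 (adjusted p = 0.0549). Sdhc, the other anchor, was at 140.3 and 139.8 and at 104.3 and 99.1 (log2 -0.46). The ratio of Sdhb to Sdha RNA, the pair that forms the catalytic head, went from 2.88 and 3.11 in GV to 0.0940 and 0.185 in MII.

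In complex III, 8 of 9 members were lower and 1 was higher. Uqcrq, a small subunit at the ubiquinone site, fell from 422.7 and 393.8 to 20.94 and 24.96 scaled TPM (log2 -4.10 ± 0.25 SE). Cyc1 (cytochrome c1), Uqcrfs1 (the Rieske iron-sulphur protein) and Uqcr11, the most abundant in GV, changed by log2 -3.27, -2.47 and -2.16. The 2 core proteins parted: Uqcrc1 went from 20.2 and 18.4 to 0.836 and 2.32 scaled TPM, and Uqcrc2 from 204.8 and 185.5 to 417.1 and 419.6. Uqcrc2 thus rose by 1.10 ± 0.13 on the log2 scale (adjusted p = 1.16e-04), just over the fold, and made up 60.1% and 52.2% of the complex III sum in MII, where Uqcr11 had led in GV with 23.7% and 22.6%. Its rise was 0.94 on the TPM as deposited, under the fold. For Uqcrc2, 24.8% of 50-base windows occur in other annotated genes and 19.75% of exonic bases overlap other genes, so its value may hold reads of those. Cycs, the carrier between complexes III and IV, fell from 181.5 and 162.6 to 50.2 and 47.2 scaled TPM (log2 -1.80 ± 0.11 SE); 28.5% of its 50-base windows occur in other annotated genes, so reads of its copies may be lost or shared.

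Complex IV, cytochrome c oxidase, kept the most RNA. Its 16 members summed to 3990 and 3900 scaled TPM in GV and 3418 and 3143 in MII oocytes, 83.1% of the GV mean, beside 24.7% for complex I, 26.1% for II, 34.9% for III and 24.4% for V. These shares are descriptions, since subunits are not replicates of a complex. Of the 16, 8 were lower, 3 higher and 5 not called, with a median log2 change of -1.13. Without the 3 that rose, the remaining 13 stood at 42.1% of their GV sum.

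**Figure D2:**
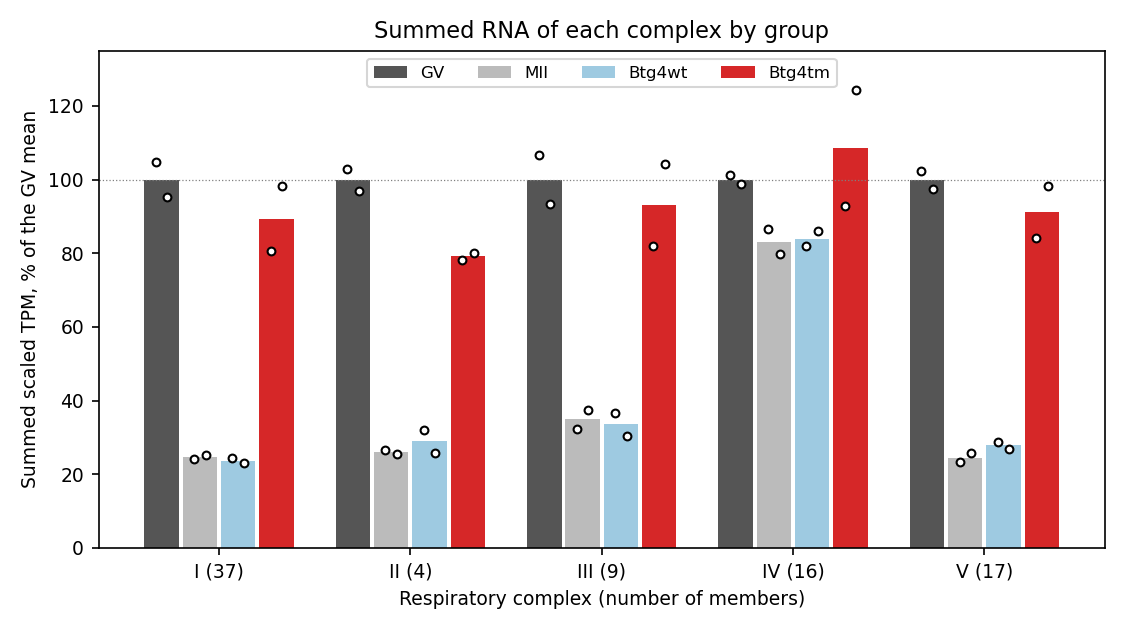
Bars give the summed scaled TPM of the members of each complex as a percentage of the GV mean, by group; open points are the 2 libraries. MII and Btg4wt oocytes lie between 23.7% and 34.9% of GV for complexes I, II, III and V and at 83.1% and 84.0% for complex IV, and Btg4tm oocytes lie between 79.2% and 108.5%.

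The fall within complex IV was large for some subunits. Cox4i1, the common form of the subunit that carries the regulatory site for ATP, went from 459.6 and 537.4 to 19.3 and 29.4 scaled TPM (log2 -4.33 ± 0.20 SE), the largest fall of the complex. Cox7c followed with 177.7 and 162.8 against 8.24 and 15.4 (log2 -3.80 ± 0.48 SE), though 53.0% of its windows occur in other genes. Cox6a1, the most abundant member of the complex in GV, was at 657.6 and 584.4 there and at 565.4 and 495.4 in MII (log2 -0.23 ± 0.14, adjusted p = 0.179).

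The 3 that rose were Cox6b2, Cox8a and Ndufa4. Cox6b2, a form of subunit 6b best known from testis, had the largest rise of any member, from 113.1 and 115.7 to 364.6 and 367.2 scaled TPM (log2 1.67 ± 0.21 SE, adjusted p = 1.91e-04). Cox8a, the common form of the smallest subunit, rose from 344.8 and 387.2 to 873.2 and 798.3 (log2 1.19 ± 0.22) and led the complex in MII with 25.6% and 25.4% of its sum. Ndufa4, named after complex I but found in complex IV, rose from 337.1 and 290.0 to 846.0 and 658.1 (log2 1.25 ± 0.16). The MII values lay above both GV values in each case. Ndufa10, Uqcrc2 and these 3 made up 6.17% and 6.50% of all member RNA in GV and 38.7% and 35.2% in MII. The direction of all 5 depends on the scaling: relative to the mitochondrially encoded genes, whose own rise shifts the median of all tested genes by -1.74, they changed by -0.54 (Cox6b2) to -1.11 (Uqcrc2), and so stood above that median.

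Complex V lost RNA from every part of the enzyme, with 15 of 17 members lower. Atp5j2, the f subunit of the membrane part, went from 215.0 and 181.9 to 5.28 and 5.56 scaled TPM (log2 -4.95 ± 0.19 SE, adjusted p = 6.91e-07), a 36.6-fold difference of means. All 4 peripheral stalk subunits, the 5 small membrane subunits and the 3 genes for the c ring were lower, with median log2 changes of -3.77, -1.97 and -2.77. Atp5h, a stalk subunit and the most abundant in GV, went from 427.8 and 425.3 to 25.5 and 39.5; 47.9% of its windows occur in other genes.

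The exceptions lay in the catalytic F1 head, where 3 of 5 fell. Atp5b, the catalytic beta subunit, was at 164.2 and 198.5 scaled TPM in GV and 207.5 and 207.3 in MII oocytes (log2 0.20 ± 0.11, adjusted p = 0.142), and Atp5c1, the rotor subunit gamma, at 187.6 and 166.0 and at 124.5 and 112.9 (log2 -0.57). Atp5a1, the alpha subunit that alternates with beta in the same ring, fell from 222.7 and 232.7 to 67.2 and 69.1 (log2 -1.73 ± 0.11 SE). The ratio of Atp5a1 to Atp5b RNA was 1.36 and 1.17 in GV and 0.324 and 0.333 in MII. Atp5b made up 33.5% and 30.3% of the complex V sum in MII, in place of Atp5h at 15.6% and 16.3% in GV.

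Paralogues of a subunit differed in how they moved in complex IV, while the c ring genes of complex V all fell. For subunit 6b, the ratio of Cox6b2 to Cox6b1 was 0.421 and 0.425 in GV, 2.36 and 2.08 in MII, 2.07 and 2.63 in Btg4wt, and 0.739 and 0.837 in Btg4tm oocytes. The testis form thus exceeded the common form in the MII and Btg4wt libraries and stayed below it in the GV and Btg4tm libraries, while Cox6b1 itself changed by -0.71 on the log2 scale. For subunit 8, Cox8a rose while Cox8c, from 7.04 and 8.82 to 0 and 1.72 scaled TPM, fell (log2 -2.43 ± 0.43 SE). For subunit 6a, Cox6a2, the form of heart and skeletal muscle, fell from 36.0 and 52.5 to 5.75 and 9.01 (log2 -2.44 ± 0.24) beside the level Cox6a1.

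**Figure D3:**
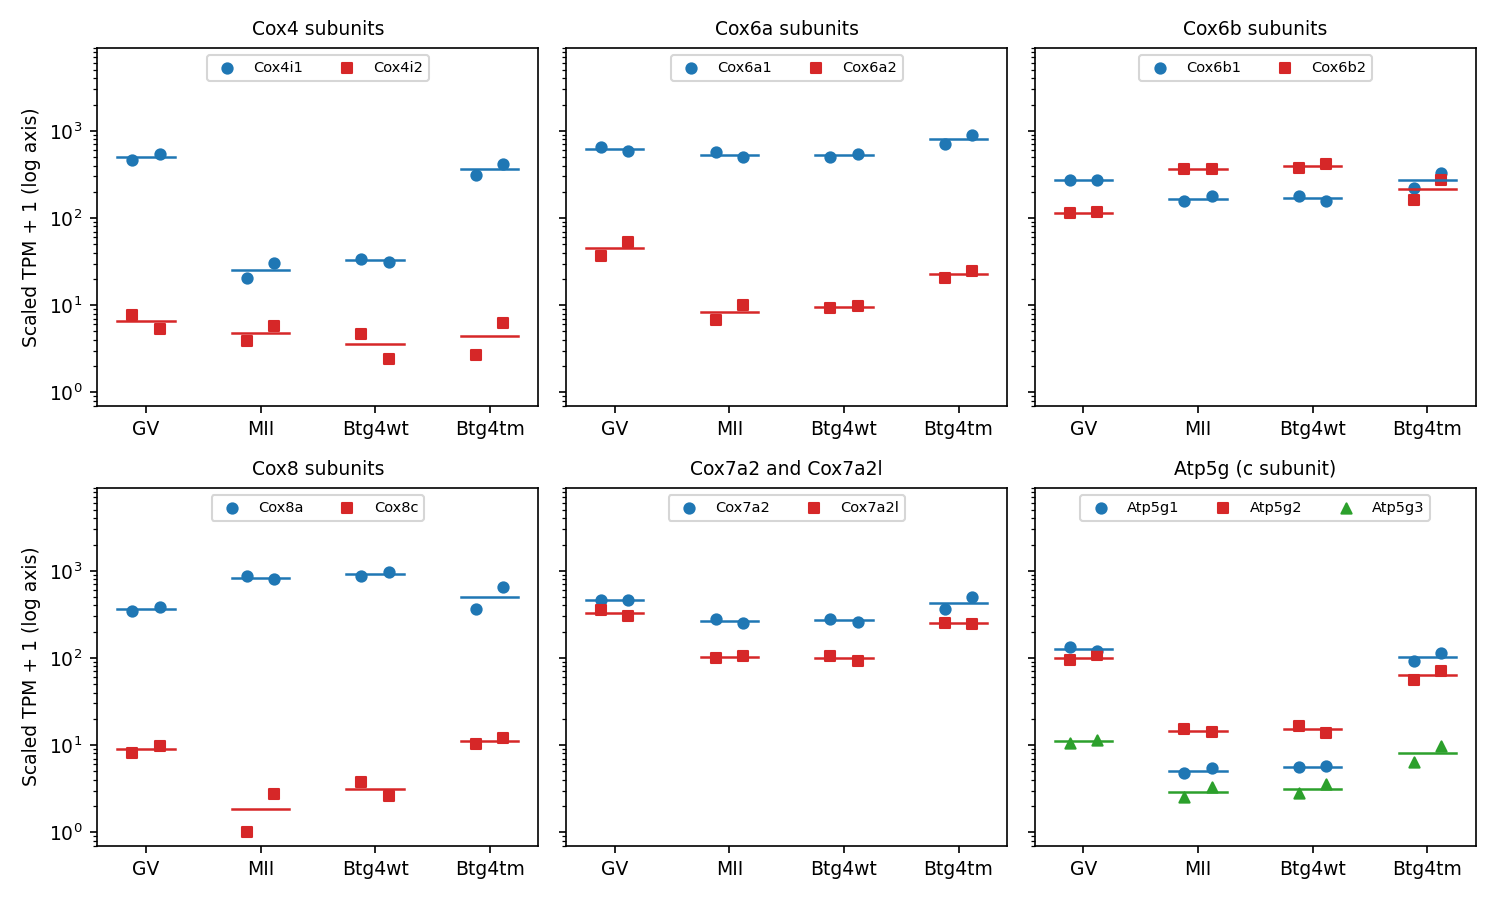
Each panel shows the paralogues of a subunit, with scaled TPM + 1 on a log axis for the 4 groups on the horizontal axis; points are libraries and bars are group means. Cox6b2 lies above Cox6b1 in MII and Btg4wt and below it in GV and Btg4tm, Cox4i1 drops toward Cox4i2, and the 3 Atp5g genes fall together and change order.

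Cox4i2, the hypoxia-linked form of subunit 4, was low throughout, at 1.41 to 6.69 scaled TPM with no call, so Cox4i1 stayed the more abundant in every library. Cox7a2l, which joins complexes III and IV into supercomplexes, fell by -1.67 ± 0.12 (SE), and Cox7a2 by -0.81, short of the fold. The 3 genes for the c ring of ATP synthase, which yield the same mature protein, all fell: Atp5g1 from 132.8 and 118.7 to 3.73 and 4.41 scaled TPM, Atp5g2 from 92.5 and 105.7 to 14.2 and 13.1, and Atp5g3 from 9.61 and 10.5 to 1.52 and 2.31. Atp5g1 was the highest of the 3 in GV and Atp5g2 in MII. For Atp5g2, 87.4% of windows also occur in other annotated genes, so this order is uncertain.

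With mutant BTG4, the RNAs that fall in maturation stood near the GV level. Members summed to 7098 and 6945 scaled TPM in Btg4wt and to 14440 and 17860 in Btg4tm oocytes. In Btg4tm against Btg4wt oocytes, a comparison that shares no library with MII against GV, 68 members were called higher, where 18.1% of all genes tested were, and 0 lower, where 7.94% were. At an unadjusted p under 0.05 (limma), 79 were higher and 4 lower. The median log2 change was 1.95, beside 0.01 for all genes tested, a value that the scaling again largely sets in advance. By complex, 30 of 37 members were higher in complex I, 2 of 4 in II, 8 of 9 in III, 8 of 16 in IV and 15 of 17 in V, with medians of 2.40, 1.46, 2.26, 0.95 and 2.05, and Cycs was higher too.

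Of the 68 members lower in MII, 67 were higher in Btg4tm oocytes. The share of 18.1% over all genes tested covers genes whether or not lower in MII, so it is not a like background. The exception was Ndufaf7, a methyltransferase of complex I assembly, at 32.8 and 25.7 scaled TPM in Btg4wt and 61.0 and 55.3 in Btg4tm oocytes, a log2 change of 0.97 that was just short of the fold. Ndufab1, the mitochondrial acyl carrier protein, was higher in Btg4tm oocytes (34.8 and 32.9 against 75.1 and 88.0) without a call in MII (log2 -0.71). Of the rest, 5 were called in MII alone, as higher, and 17 in neither comparison. How many of all tested genes lower in MII were also higher in Btg4tm oocytes was not counted. Over the 13968 genes tested both changes were opposed as well (Spearman's rho -0.81).

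**Figure D4:**
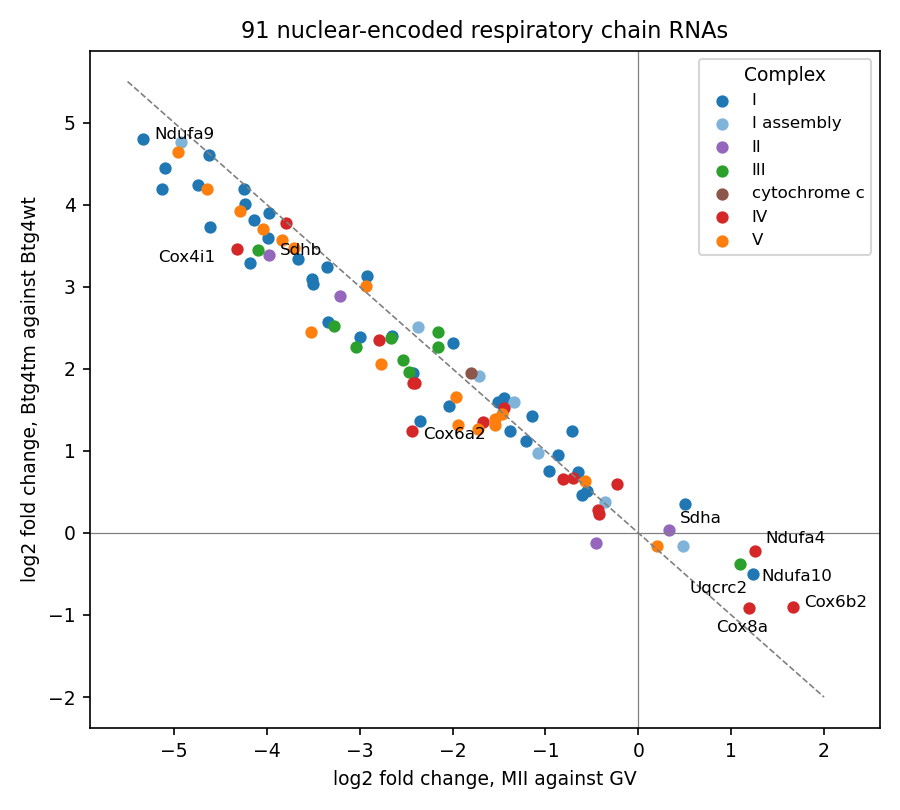
Each point is a member, with its log2 fold change in MII against GV oocytes on the horizontal axis and in Btg4tm against Btg4wt oocytes on the vertical axis, coloured by complex; the dashed line marks a rise equal in size to the fall. Points run along the line from Ndufa9 (-5.33 and 4.80) to Cox6b2 (1.67 and -0.90), the latter among the 5 whose sign reverses with scaling to the mitochondrially encoded genes.

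The size of the rise followed the size of the fall. Spearman's rho between both log2 changes was -0.97 over the 91 members and -0.81 over the 13968 genes tested, as a description across genes that share libraries and are not independent. Ndufa9, for which each library is given above, had the largest rise on the log2(scaled TPM + 1) scale, 4.80 ± 0.15 (SE, adjusted p = 7.51e-07). Its fold between means, 30.6, was below those of the less abundant Ndufb7 (66.0) and Ndufaf3 (50.4). Ndufaf3 rose from 1.30 and 0.953 to 50.9 and 62.6 scaled TPM (log2 4.76 ± 0.23), Atp5j2 from 4.99 and 5.23 to 123.7 and 186.9 (4.65 ± 0.19), Cox7c from 20.7 and 5.68 to 153.1 and 175.8 (3.78 ± 0.48), Uqcrq from 36.9 and 19.4 to 281.8 and 325.9 (3.45 ± 0.25) and Sdhb from 11.8 and 6.24 to 99.5 and 99.2 (3.38 ± 0.30). In each of these the Btg4tm libraries lay above both Btg4wt libraries.

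The share of the fall that was regained, the rise in Btg4tm over Btg4wt divided by the fall in MII in log2 units, was 90.0% at the median of the 68 members that were lower in MII (quartiles 80.5% and 98.2%). Over all 3351 genes lower in MII the median was 76.5%. Among the members it ran from 51.0% for Cox6a2, at 8.36 and 8.72 scaled TPM in Btg4wt and 19.36 and 23.97 in Btg4tm oocytes, to 125% for Ndufa3, an accessory subunit of complex I, at 32.8 and 22.5 and at 64.6 and 86.4.

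The 5 RNAs that rose in MII were at or below their Btg4wt level in Btg4tm oocytes by their means, though none passed the fold. Cox6b2 was at 371.1 and 414.1 in Btg4wt and 161.1 and 273.1 in Btg4tm oocytes (log2 -0.90 ± 0.21 SE, adjusted p = 0.00757), and Cox8a at 868.0 and 963.4 and at 367.7 and 642.5 (-0.91 ± 0.22, adjusted p = 0.00992). Both would be called lower without replicate 2 of Btg4tm, with log2 changes of -1.28 and -1.31. That library held more member RNA than replicate 1, by a median of 0.27 log2 units. Ndufa10, Uqcrc2 and Ndufa4 had log2 changes of -0.50, -0.38 and -0.22, and relative to the mitochondrially encoded genes the changes of all 5 were positive (0.18 to 0.86), where the median of all tested genes shifted by 0.88.

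Btg4wt oocytes differed little from uninjected MII oocytes in these RNAs. No member was called in Btg4wt against MII by limma, where 0% of all genes tested were called lower and 0% higher, and the smallest adjusted p of a member was 0.236, for Ndufb3. At an unadjusted p under 0.05, 5 members were lower and 8 higher. The median log2 change was 0.03, and the complexes held 23.7% (I), 28.9% (II), 33.5% (III), 84.0% (IV) and 27.9% (V) of their GV sums, beside the MII values given above.

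In Btg4tm against GV oocytes, which uses libraries of both earlier comparisons, no member was called by limma, where 1.02% of genes tested were called lower and 1.02% higher. At an unadjusted p under 0.05, 10 members were lower and 8 higher, and 6 had an adjusted p under 0.05 with a smaller change. Ndufa10, Ndufa4, Uqcrc2 and Cox6b2 were above GV by log2 0.72, 0.80, 0.70 and 0.87, and Atp5g2 and Cox6a2 below it by -0.68 and -0.98. The summed level of all members was 94.2% of GV, from 79.2% for complex II to 108.5% for complex IV.

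Rise and fall were also compared gene by gene in a single contrast, which is 0 when the change with the mutant cancels the change in maturation. A single member, Ndufa4, was called, as higher (1.03 ± 0.23 SE, limma adjusted p = 0.0368), where 1.7% of genes tested were called lower and 1.99% higher. At an unadjusted p under 0.05, 12 members were lower and 6 higher. Ndufa4 was at 612.4 and 660.7 scaled TPM in Btg4wt and 479.1 and 618.2 in Btg4tm oocytes, a log2 change of -0.22 (adjusted p = 0.286) beside its rise of 1.25 in maturation. Ndufa1, Ndufa10 and Uqcrc2 also had adjusted p-values under 0.05, with values of 0.85, 0.73 and 0.72. The call of a member as higher was lost in 6 of 8 fits that left out a library, and the median over the members was -0.20.

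The mitochondrially encoded partners moved the opposite way. Of 13 mitochondrial genes for subunits, 11 were listed in all tables, and all 11 were higher in MII than in GV on this scaling. Their sum was 2843 and 3038 scaled TPM in GV, 16930 and 17850 in MII, 12530 and 9739 in Btg4wt, and 5369 and 6714 in Btg4tm oocytes. Because TPM are shares and the poly(A) tail governs capture, this may differ from the change in molecules per oocyte. mt-Nd1 and mt-Nd5 were lower in Btg4tm than in Btg4wt oocytes (log2 -1.22 and -1.12), and the other 9 were not called.

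The balance between the genomes differed between the stages as a result. For complex I, the ratio of summed nuclear to summed mitochondrial RNA was 5.10 and 4.43 in GV, 0.180 and 0.176 in MII, 0.238 and 0.291 in Btg4wt, and 2.13 and 1.89 in Btg4tm oocytes. For complex III it was 2.52 and 1.98 in GV, 0.116 and 0.131 in MII and 0.858 and 0.971 in Btg4tm oocytes. For complex IV it stayed above 1 in every library, from 7.04 and 6.56 in GV to 1.67 and 1.45 in MII and 4.85 and 5.16 in Btg4tm oocytes. Nearly all of its mitochondrial RNA was mt-Co1, at 561.2 to 2145 scaled TPM. mt-Co2 and mt-Co3 were at 1.36 to 12.4 scaled TPM, so this ratio says little of them. Complex V rests on mt-Atp6 and mt-Atp8, which were under 50 scaled TPM in every library, so its ratio has little weight.

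**Figure D5:**
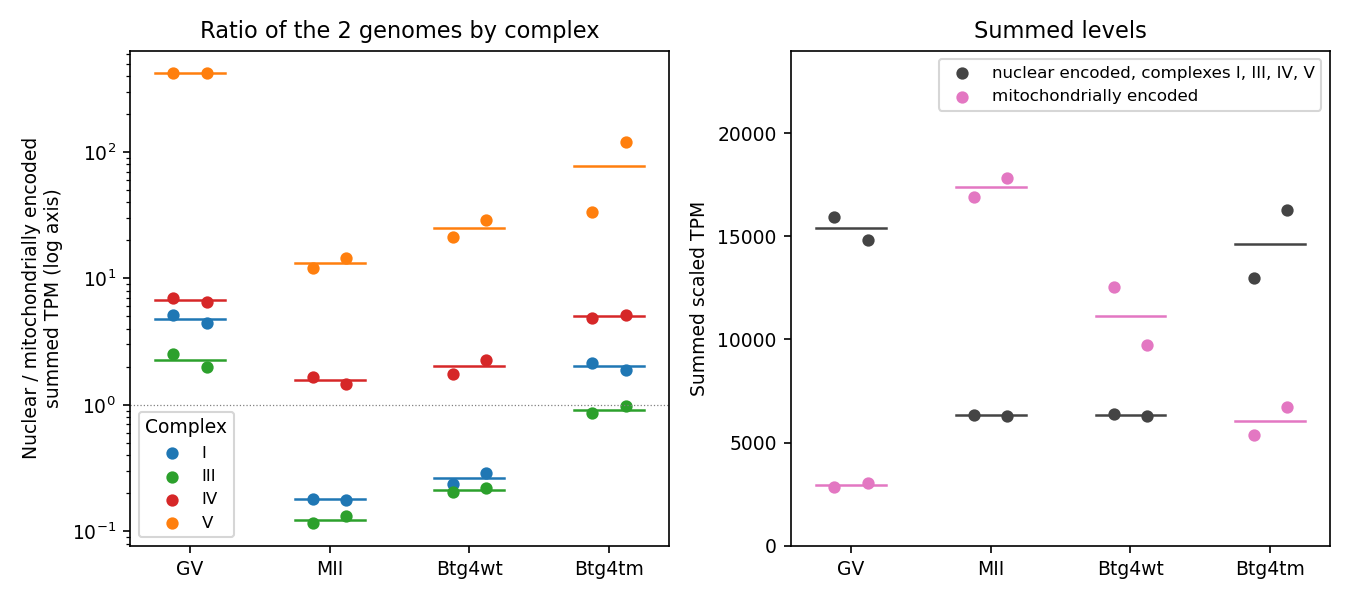
Left, the ratio of summed nuclear to summed mitochondrially encoded scaled TPM for complexes I, III, IV and V by group on a log axis; right, the summed scaled TPM of both sets; points are libraries and bars are group means. Mitochondrially encoded RNA exceeds nuclear RNA in the MII and Btg4wt libraries for complexes I and III. For complex III it also does so, by less, in the Btg4tm libraries (ratios of 0.858 and 0.971). Complex IV, whose mitochondrial RNA is nearly all mt-Co1, stays above a ratio of 1.

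The members are short RNAs. Their median transcript length was 865 bases against 2476 for the 13818 tested genes with an annotated transcript, and the median 3′ UTR was 182 bases against 937. Among all tested genes longer transcripts tended to hold their level better in MII (Spearman's rho 0.32 across genes), whereas among the members rho was -0.00 (n = 91). Of the 2849 tested genes with the lengths of the central members (620.5 to 1503.5 bases), 40.8% were lower in MII and 33.8% higher in Btg4tm oocytes. Over all 91 members, which include those outside these lengths, the share was 74.7% in each comparison.

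Cytoplasmic polyadenylation elements are letters in the 3′ UTR that can direct tail extension during maturation. TTTTAT or TTTTAAT, read on the transcript strand, lay in the last 100 bases of the 3′ UTR (or the whole of a shorter one) in 8 of 90 members (8.89%) and in 19.5% of the tested genes. Anywhere in the 3′ UTR, the shares were 23.3% and 60.3%, for UTRs of unequal length. None of the 5 RNAs that rose in MII held these letters in its annotated 3′ UTR. Of the 8 members with them near the end, which include Ndufa2 and Ndufaf3, 6 were lower in MII, with a median log2 change of -1.94, beside 61 of 82 without, with a median of -2.39. A match of letters does not show a working element, and annotated ends may differ from those used in oocytes.

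Near-identical copies could affect the counts. More than 25% of the 50-base windows occurred in other annotated genes for 17 members. Among these were Atp5g2, Atp5h, Cox7c, Cycs, Ndufb6 and Ndufb4c, the last counted in complex I with 100% of its windows shared. The authors dropped reads of low mapping quality. Of the other 74 members, 52 were lower and 5 higher in MII and 52 were higher in Btg4tm oocytes, with median log2 changes of -2.36 and 1.93. Among the 5 that rose, Uqcrc2 lay just under this bound, at 24.8%.

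Factors that build the complexes, outside the symbol rule, were read from a list of 41 genes, of which 37 were tested. In MII oocytes 23 were lower (62.2%, beside 24% of all genes tested) and 2 higher (5.41%, beside 12.5%). In Btg4tm against Btg4wt oocytes 20 were higher by limma (54.1%, beside 18.1%) and 0 lower, where 7.94% of all genes tested were. With an unadjusted p under 0.05 (limma), 27 were higher and 3 lower in the latter. The median log2 changes were -1.41 and 1.09. Uqcc2, a complex III assembly factor, fell from 310.7 and 261.9 to 3.59 and 16.3 scaled TPM (log2 -5.00) and Coa7, of complex IV, from 43.9 and 47.6 to 0.898 and 1.59 (-4.40). Cox10, which makes the haem of complex IV, and Sdhaf4, of complex II, rose: Cox10 from 242.4 and 237.9 to 508.0 and 499.9 (1.07) and Sdhaf4 from 293.3 and 245.8 to 619.6 and 581.0 (1.16). Both rises are smaller in size than the shift of -1.74 in the median of all tested genes under scaling to the mitochondrially encoded genes. Their direction may thus depend on the scaling, and their own values under it are not given here. Of 12 regulators of mitochondrial genes, 9 were tested, with 2 lower in MII (22.2%, beside 24% of all genes tested) and 2 higher and 1 lower in Btg4tm than in Btg4wt oocytes (22.2% higher, beside 18.1%), shares near the background. Clpb, a mitochondrial disaggregase, and Slirp, which stabilises mitochondrial RNA, were lower in MII (log2 -2.79 and -2.44) and higher in Btg4tm than in Btg4wt oocytes (2.31 and 1.95), and Pprc1, a coactivator, was lower in Btg4tm oocytes (-1.23). Nrf1 and Tfam, which act on the nuclear and the mitochondrial genome, had log2 changes of -0.89 and -0.63 in MII, within the fold.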

How the data were processed

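Poly(A) RNA of 15 pooled oocytes per library was amplified by Smart-seq2. Per the methods of the study and the submitters' processing notes, the authors trimmed reads with Trim Galore 0.6.10, aligned them with HISAT2 2.2.0 to GRCm38, counted them per gene with featureCounts 2.0.6 (primary alignments of mapping quality 10 or more, without strand) and deposited TPM per gene. The gene lengths behind the TPM are not given in the sources used here, and read depth is unknown from TPM, so no counting interval is given.

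Libraries were grouped by their labels. TPM were scaled by the median of ratios over genes in all tables, and the 13968 genes that reached 1 TPM in 2 or more libraries were fitted as log2(scaled TPM + 1) with limma 3.58.1 in R 4.3.3 (all 8 libraries, eBayes with trend, 4 residual degrees of freedom, Benjamini-Hochberg adjustment over all genes tested). The code was tested on simulated data. Transcript features and sequences came from GENCODE M21 on GRCm38, with 1 transcript per gene.

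The members and lists were chosen with earlier results of these data known. Named with values were, per complex, the largest and smallest changes in each comparison and the most abundant member in GV among those averaging 10 scaled TPM or more, the paralogue sets, the members called higher in MII, and the electron carriers and catalytic subunits, of which 1 is not reported here by name. Ndufb7, Ndufa1, Ndufaf7, Ndufab1, Ndufa3, Cox7c and the genes named from the assembly and regulator lists were chosen after their values were seen. Alternatives were other scalings, pseudocounts (0.1), filters (5 TPM or none), thresholds, variance models, a replicate block, removal of trends on length and GC content, and leaving out each library.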

Additional observations from a re-analysis of the deposited data

How the results depend on the processing

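The alternatives were run on every comparison. Leaving out 1 library at a time gave 66 to 69 members lower in MII and 68 or 69 higher in Btg4tm than in Btg4wt oocytes; the lone library of a group was then assumed to vary like the other groups. Over these fits the median log2 change ran from -2.48 to -2.14 in MII, from -0.053 to 0.15 in Btg4wt against MII and from -0.34 to -0.058 in Btg4tm against GV, with 0 to 1 member lower and 0 to 1 higher in the last, 0 to 2 lower in Btg4tm against Btg4wt, and 0 to 1 lower and 0 to 2 higher in rise against fall. Cox4i2 in Btg4tm against Btg4wt was at -0.20 without Btg4wt replicate 2 and -0.32 without Btg4tm replicate 2 (range -0.32 to 0.88), and Sdha at -0.05 without Btg4wt replicate 2 and -0.10 without Btg4tm replicate 1 (range -0.10 to 0.16); neither was called.

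Scaling to the mitochondrially encoded genes had the largest effect of the scalings tried. In MII, 88 members were lower and 0 higher, 4 in complex II and 14 in complex IV, with a median of -4.36, and values of Atp5b -2.01, Cox6b2 -0.54, Cox8a -1.02, Ndufa10 -0.97, Ndufa4 -0.96, Ndufaf2 -1.72, Sdha -1.84 and Uqcrc2 -1.11. In Btg4tm against Btg4wt, 83 were higher, 13 in complex IV, with a median of 2.99, and values of Atp5b 0.93, Cox6b2 0.18, Cox8a 0.18, Ndufa10 0.58, Ndufa4 0.86, Ndufaf2 0.92, Sdhc 0.96 and Uqcrc2 0.70. Btg4wt against MII then had 1 member higher and a median of 0.46, Btg4tm against GV 22 lower and a median of -0.80, and rise against fall 64 lower, 0 higher and a median of -1.27.

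Quantile normalization gave medians of -2.16 and 1.72, 1 member lower in Btg4tm against Btg4wt, Sdha at -0.21 there and 0 members higher in rise against fall. Removing trends on length and GC content gave 61 lower in MII, 58 of them among the 68 (without Atp5mpl, Cox5a, Ndufa11, Ndufa13, Ndufa3, Ndufa5, Ndufa6, Ndufaf6, Ndufaf7 and Ndufaf8), and 61 higher in Btg4tm oocytes, 60 of them among the 68 (without Atp5g3, Atp5mpl, Cox6a2, Cox7a2l, Ndufa11, Ndufa13, Ndufa3 and Ndufa6), with medians of -1.87 and 1.5017, 3 assembly factors lower and Cox4i2 at 0.64 and Cox6a1 at 0.86 in MII. It also gave 2 members lower in Btg4tm against Btg4wt (Cox6b2 -1.78, Cox8a -1.83), with Cox4i2 -0.63, Cox6a1 -0.32, Cox7a2 -0.015 and Sdhc 0.039, 1 higher in Btg4tm against GV, and 1 lower and 0 higher in rise against fall. TPM as deposited gave 2 lower and a median of -0.33 in Btg4tm against GV, and 3 lower and 0 higher in rise against fall. With no minimum fold change 4 members were lower in Btg4tm against Btg4wt, 2 lower and 4 higher in Btg4tm against GV, and 4 higher in rise against fall, and without the variance trend or at an adjusted p under 0.01 the last was 0. The causes were not tested.

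Same-numbered libraries did not deviate together (correlations of -0.054 to 0.055), so the numbers do not pair them. With the replicate number as a block, 68 members were lower in MII and 68 higher in Btg4tm oocytes, and rise against fall had 1 lower and 0 higher. Depth is unknown, so its part in the precision of low genes was not tested.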

Other observations

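The loci left out of the members ranged widely in level. Ndufb1-ps, left out for the ending of its symbol, stood at 384 and 330 scaled TPM in GV, 17.5 and 23.3 in MII, 21.8 and 18.5 in Btg4wt, and 261 and 307 in Btg4tm oocytes. No member is named Ndufb1, and whether Ndufb1-ps codes for a complex I subunit was not tested. Ndufa12-ps was at 117 and 105, 10.1 and 11.3, 11.0 and 5.22, and 109 and 112 in the same order. In both, the GV and Btg4tm libraries lay above all MII and Btg4wt libraries. Cox5b-ps was at 39.8 and 50.2 in GV and 9.25 and 7.25 in MII, and Ndufs5-ps at 116 and 174 and at 36.3 and 37.4. Ndufab1-ps was low, at 6.26 and 3.32 in GV and 0.321 and 2.35 in MII, as were Atp5c1-ps (0.346 to 2.42 in the 4 GV and MII libraries, the tables that list it) and Ndufaf1 (0.412 to 1.17 in the 4 Btg4wt and Btg4tm libraries). Whether these values come from the loci themselves or from reads of a near-identical gene was not tested.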
